A study of Homo sapiens with 6 samples.

Results

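The regions described here are the sharp peaks of lactylated histone H4 lysine 5 (H4K5la) that every analysed library of the study shared. Peaks of the 4 libraries were merged wherever they overlapped by at least 1 bp, which gave 71122 merged regions. A region was kept when it lay on an autosome more than 5 Mb from either chromosome end, held exactly 1 peak in each of the 4 libraries, and none of those peaks reached 1000 bp. This rule left 8132 regions, 11.4% of all merged regions and 62.5% of the 13018 interior autosomal regions that all 4 libraries held. Presence, position, peak number and peak width chose the members and are given below only as descriptions. The word sharp stands for the 1000 bp limit alone, since members were no narrower in the median than other peaks.

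Chromatin came from PLC/PRF/5, an established human hepatocellular carcinoma line that carries integrated hepatitis B virus DNA, and was precipitated with an antibody to H4K5la before sequencing. The control libraries (replicates 2 and 3) came from untreated cells, and the lactate libraries (replicates 2 and 3) from cells kept in 20 mM lactate for 24 h. Both groups used the same line and the same antibody. The labels do not say whether replicates came from separate cultures, so the spread between the 2 libraries of a group may be technical. The 2 input libraries were not analysed here as files of their own.

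Histone lactylation is an acyl mark in which a lactyl group, derived from the product of glycolysis, is attached to a lysine. Lysine 5 of H4 also takes acetyl and other acyl groups, and acylated H4 tails are commonly found at active promoters and enhancers. A ChIP peak shows where the antibody pulled down more DNA than its local surroundings, and it does not measure the expression of the gene it lies in.

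Promoters that held the summit of a shared sharp region are shown first, because there the mark can be set against a known start site. The summit is the highest point of a peak, and the mean of the 4 summits was used as the position of a region. RefSeq promoter windows (GRCh38.p14, the same assembly series as the hg38 coordinates of the peaks) run from 250 bases before to 50 bases after a transcription start. The table held 22156 starts for 15813 of 19974 coding genes (79.2%). Summits of 113 members fell in 123 of these windows, and the 5 best-ranked of them follow, written 5′ to 3′ on the gene's strand with each CG dinucleotide in capitals.
CFAP161 promoter, chr15:81134020-81134319, plus strand: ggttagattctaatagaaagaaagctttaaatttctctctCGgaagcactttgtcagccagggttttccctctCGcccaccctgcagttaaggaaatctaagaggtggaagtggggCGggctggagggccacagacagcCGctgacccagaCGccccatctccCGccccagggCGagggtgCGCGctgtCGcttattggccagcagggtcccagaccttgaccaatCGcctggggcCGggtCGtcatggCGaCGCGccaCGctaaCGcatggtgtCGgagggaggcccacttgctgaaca
LTA promoter, chr6:31572039-31572338, plus strand: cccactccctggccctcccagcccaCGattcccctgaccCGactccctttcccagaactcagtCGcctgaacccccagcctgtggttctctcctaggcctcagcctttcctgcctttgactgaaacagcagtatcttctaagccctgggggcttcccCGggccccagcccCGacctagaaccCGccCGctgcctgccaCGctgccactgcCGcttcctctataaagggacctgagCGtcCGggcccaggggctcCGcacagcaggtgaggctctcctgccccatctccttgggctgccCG
PPP1R17 promoter, chr7:31686965-31687264, plus strand: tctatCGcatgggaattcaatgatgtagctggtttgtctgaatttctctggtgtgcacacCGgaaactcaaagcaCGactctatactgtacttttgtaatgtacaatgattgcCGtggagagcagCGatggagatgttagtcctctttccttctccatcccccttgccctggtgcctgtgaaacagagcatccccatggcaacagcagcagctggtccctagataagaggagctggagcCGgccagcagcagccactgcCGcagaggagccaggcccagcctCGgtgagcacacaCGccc
PDE11A promoter, chr2:178108290-178108589, minus strand: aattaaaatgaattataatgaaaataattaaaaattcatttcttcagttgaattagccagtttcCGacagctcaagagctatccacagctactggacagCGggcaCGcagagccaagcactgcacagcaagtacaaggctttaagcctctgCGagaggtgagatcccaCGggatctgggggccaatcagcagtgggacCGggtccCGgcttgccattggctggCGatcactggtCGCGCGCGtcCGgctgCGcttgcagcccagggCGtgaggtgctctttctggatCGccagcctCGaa
ANKRD7 promoter, chr7:118224454-118224753, plus strand: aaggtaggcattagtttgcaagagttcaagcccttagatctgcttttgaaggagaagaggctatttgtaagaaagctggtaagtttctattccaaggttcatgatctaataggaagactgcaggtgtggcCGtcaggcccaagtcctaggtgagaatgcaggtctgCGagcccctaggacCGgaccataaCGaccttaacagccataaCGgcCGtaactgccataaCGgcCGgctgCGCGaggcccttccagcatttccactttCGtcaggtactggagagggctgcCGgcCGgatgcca

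CFAP161 encodes a cilia- and flagella-associated protein. Its summit lay 68 bp before the start, and the fold enrichment of its peak was 12.3 and 16 in control replicates 2 and 3 against 11.8 and 14 in lactate replicates 2 and 3. LTA encodes the cytokine lymphotoxin alpha, and its summit lay 3 bp past the start with a fold of 13.9 and 12.4 in untreated cells against 12.1 and 14.9 under lactate. PPP1R17, a regulatory subunit that inhibits protein phosphatases, had its summit 15 bp past the start and a fold of 12.4, 13.2, 11.6 and 14.3. Wherever 4 values are listed together, they follow the order control replicates 2 and 3, then lactate replicates 2 and 3, and reads at a summit are as sequenced unless named as scaled. The control and lactate values of these 3 promoters overlapped. At PDE11A, a cyclic nucleotide phosphodiesterase gene, the fold was 12, 10.9, 11.1 and 13.7, again with overlapping groups. At ANKRD7, a gene of an ankyrin repeat protein, the summit lay 23 bp past the start. Its fold was 9.29 and 12.5 in untreated cells against 13 and 13 under lactate, which did not overlap. Scaled to each library's genome-wide background, its reads were 21, 28.6, 28.1 and 28.6, which did overlap. The local background there was 1.19, 1.2, 1 and 1 times the genome-wide level.

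The 123 promoters with a summit had a median GC content of 63.7%, against 62.3% over all 22156 starts. Their median number of CG dinucleotides was lower, at 16 per 300 bases against 21. The 5 printed promoters hold 19, 13, 9, 17 and 13 CG dinucleotides in the order shown. Motifs were searched on both strands as exact letters, and a match describes the letters only. The GC box GGGCGG was present in 61.8% of the promoters with a summit and in 56.3% of all promoters. The CCAAT box CCAAT was present in 26% against 34.6%, and the E-box CACGTG in 4.88% (6 promoters) against 8.34%. The ETS core CGGAAG (22.8% against 23.7%), the TATA box TATAAA (10.6% against 9.46%) and the AP-1 site TGACTCA (4.07% against 4.02%) were close to the shares over all promoters. No test was run on these shares, since neighbouring promoters share sequence and regions are not replicates.

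The regions of 21 members overlapped the hairpin of a microRNA, the precursor from which the mature strand that pairs with target messages is cut. They held 23 of the 1560 hairpins in the RefSeq table, with 36 mature strands and 36 different seeds, so none shared a seed. In 4 of these hairpins (MIR3194, MIR4695, MIR455 and MIR337) the mean summit lay inside the hairpin itself. These and miR-26a, whose hairpin was 42 bp from its summit, are printed with the seed (bases 2 to 8) in capitals; they were chosen after their values were seen.
hsa-miR-3194-5p: gGCCAGCCaccaggagggcug
hsa-miR-4695-5p: cAGGAGGCagugggcgagcagg
hsa-miR-455-3p: gCAGUCCAugggcauauacac
hsa-miR-455-5p: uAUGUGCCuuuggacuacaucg
hsa-miR-337-3p: cUCCUAUAugaugccuuucuuc
hsa-miR-26a-5p: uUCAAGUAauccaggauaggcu

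The MIR3194 region, inside NFATC2, the gene of a calcium-regulated transcription factor, lay at chr20:51452691-51453149. Its fold was 12 and 10.7 in untreated cells against 12.5 and 13 under lactate, and its 4 peaks were 390 to 415 bp wide. The MIR4695 region in ALDH4A1, a proline catabolism gene, had a fold of 10.9, 10.3, 10.7 and 13.8. The MIR455 region in COL27A1, a fibrillar collagen gene, had 17 reads at the summit in each control library and 31 and 29 in lactate replicates 2 and 3. Its fold was 7.06 and 7.48 in untreated cells against 13.8 and 11.5 under lactate, so both measures were higher in both lactate libraries. The MIR26A1 region in CTDSPL differed within the groups, with a fold of 13.9 and 5.57 in untreated cells against 16.4 and 9.24 under lactate. The MIR337 region lay outside coding genes and was low in all libraries but control replicate 3, with 12, 23, 12 and 12 reads.

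The 4 libraries differed in depth and in the number of peaks called. Relative to control replicate 2, sequencing depth recovered from the deposited values was 0.942 in control replicate 3, 0.786 in lactate replicate 2 and 0.887 in lactate replicate 3. The lists held 52215 and 52959 peaks in the control against 37951 and 38402 in the lactate libraries. Shared sharp regions therefore made up 15.6% and 15.4% of control peaks but 21.4% and 21.2% of lactate peaks, and 11.5%, 11.4%, 18.9% and 18.8% of the bases covered by peaks. No peak was narrower than 304 to 317 bp in any library, so the members filled the range from there up to the limit of 1000 bp.

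Members stood slightly higher above background than other peaks of the same library. Fold enrichment, the authors' ratio of the ChIP signal to its local background at the summit, had a median over the members of 7.89 in control replicate 2 (middle 50% of members 6.42 to 9.64) and 8.7 in control replicate 3 (7.05 to 10.5). The medians were 8.21 in lactate replicate 2 (6.44 to 10.6) and 8.44 in lactate replicate 3 (6.58 to 10.9). All other peaks of those libraries had medians of 7.06, 7.48, 6.77 and 7.01. A region had to pass the peak threshold in all 4 libraries to be a member, so this difference is in part set by the rule. The lactate medians lay between the 2 control medians.

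Each fold value rested on a small number of reads. The number of reads at each summit was recovered from the deposited fold and −log10 p-value, and came out whole, within 0.005, for 100% of peaks. Members had a median of 24 and 25 reads at the summit in control replicates 2 and 3 and of 22 and 25 in lactate replicates 2 and 3. The middle 50% of members had 20 to 29, 21 to 30, 17 to 28 and 19 to 32 reads. Counting error is large at such numbers. The recovered reads of the 2 control libraries ranked members with a Spearman correlation of 0.549 (across 8132 regions of the same 2 libraries). The same correlation was 0.736 between the lactate libraries.

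**Figure D1:**
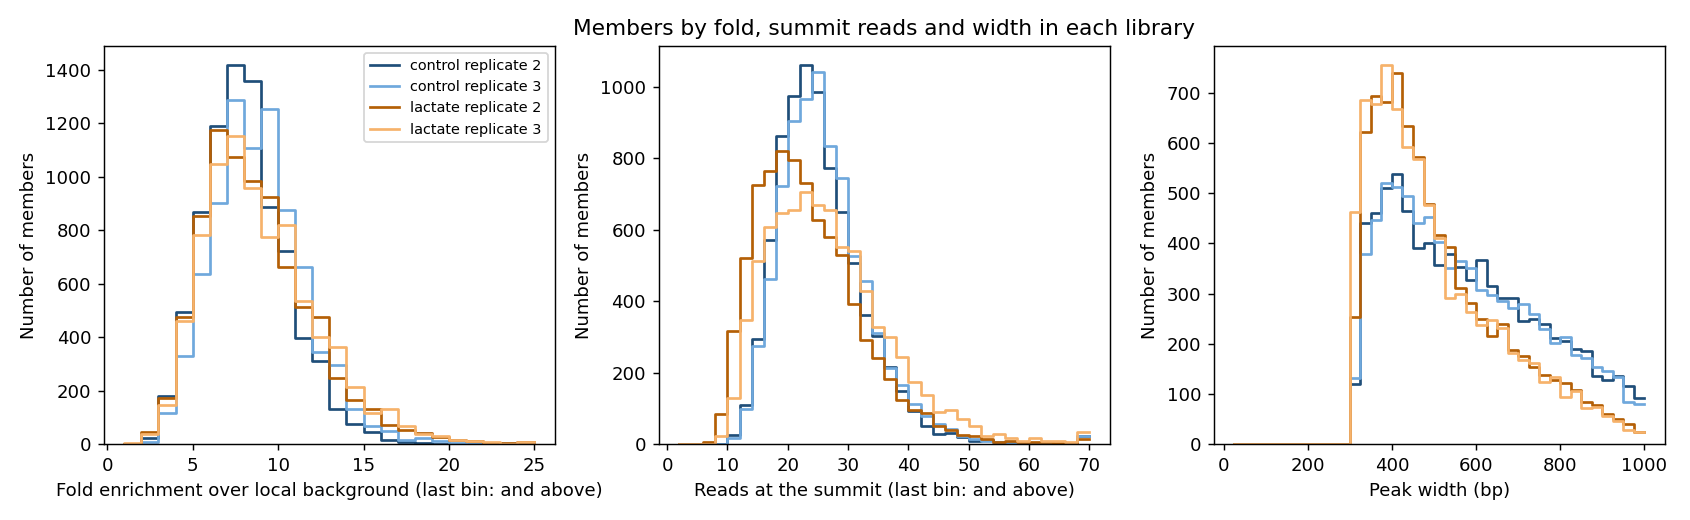
Members counted by fold enrichment over local background, by reads at the summit and by peak width in bp, with a line for each of the 4 libraries. Fold and reads peak at similar values in all libraries, and lactate peaks are narrower, with median widths of 469 and 460 bp against 550 and 545 bp in the control.

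The histograms of fold, reads and width show where the libraries differed most. Member peaks were wider in the control, with medians of 550 and 545 bp, than in the lactate libraries, with 469 and 460 bp. The same order held among all other peaks, at 546 and 535 bp in the control against 441 and 428 bp in the lactate libraries. Within each library the members were thus slightly wider in the median than the other peaks. Width was part of the rule, and both lactate libraries were of lower depth than both control libraries, so depth and treatment cannot be told apart for width.

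Members were ordered by the mean of their 4 fold ranks. The second in this order lay at chr8:57209632-57210502, 216429 bp from the nearest coding gene, BPNT2, which encodes a Golgi phosphatase. It held 148, 127, 94 and 100 reads over a background of 4.78, 4.78, 2.52 and 1.3 times the genome-wide level. Its fold was 21 and 19.2 in untreated cells against 27.2 and 38.5 under lactate, so the fold did not overlap between the groups. Its fold ranks among the members, at 1, 21, 2 and 1, did overlap. When reads were instead scaled to each library's genome-wide background, the values were 124, 114, 101 and 98.8, and lactate was the lower group. The members ranked 3 to 12 had 34 to 88 reads, and their background was between 1 and 1.58 times the genome-wide level.

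SRGAP3, a gene of the Slit-Robo pathway, held the third member at chr3:9110195-9111016. Its summit had 41 and 55 reads in the control against 73 and 88 in the lactate libraries, and its fold was 15.8, 22.3, 28.2 and 30.6. Both measures were higher in both lactate libraries. MYLK2, a myosin light chain kinase gene, had a fold of 14.9, 19.2, 24 and 30.2 with the same order of groups. TLN2 encodes talin 2, which couples integrins to actin, and held a member of this group inside the gene (fold 17.5, 14.2, 21.1 and 20.8). Another lay 56585 bp from TLN2, with a fold of 19.7, 19.7, 20.6 and 18.6, so its groups overlapped. The remaining members of ranks 3 to 12 lay inside PTPN1 (an insulin receptor phosphatase), ITGA11 (a collagen-binding integrin) and ST8SIA2 (a polysialyltransferase), or nearest to SLC35H1, SYNPO (an actin-associated protein of podocytes) and RIPK4 (a kinase of epidermal differentiation). The members of ranks 3 to 12 lay 17405 bp or more from the nearest coding start in the promoter table.

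The best-ranked members within 1 kb of a coding start began at rank 36. That member lay 868 bp outside SLFN11, a gene tied to the response to DNA-damaging drugs, and its fold was 15.1 and 12.8 in untreated cells against 17.8 and 17.3 under lactate. RAD18, a ubiquitin ligase gene of DNA damage tolerance, held the next one, with a fold of 15.1, 13.2, 13 and 18.6. KCNK16, a potassium channel gene of pancreatic islets, had a fold of 10.1 and 12.8 in untreated cells against 15.9 and 16.5 under lactate. The fold did not overlap between the groups at SLFN11 and KCNK16 and did overlap at RAD18. By fold rank among the members, the groups overlapped at SLFN11 (66, 680, 124 and 168) but not at KCNK16 (1595, 680, 266 and 244). The other 7 lay at AGBL1, CFAP161, FAM178B, LTA, SNORC, PPP1R17 (inside an annotated form of PDE1C as well) and DEF6, with fold values between 9.71 and 22.6.

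Summits of a member fell close together in different libraries. The median distance between the 2 summits of a member was 43 bp for the control pair and 33 bp for the lactate pair. It was 40 to 46 bp for the 4 pairs that crossed treatments, so the control pair was no closer than the crossed pairs. Between 53% and 57.3% of members had their summits within 50 bp in the crossed pairs, against 54.6% for the control pair and 65.3% for the lactate pair. In the 4886 other interior regions held by all 4 libraries, wider or with several peaks, the medians were 180 bp for the control pair, 55.5 bp for the lactate pair and 140 to 174 bp across. Those regions are wider by the rule, which leaves more room between summits.

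**Figure D2:**
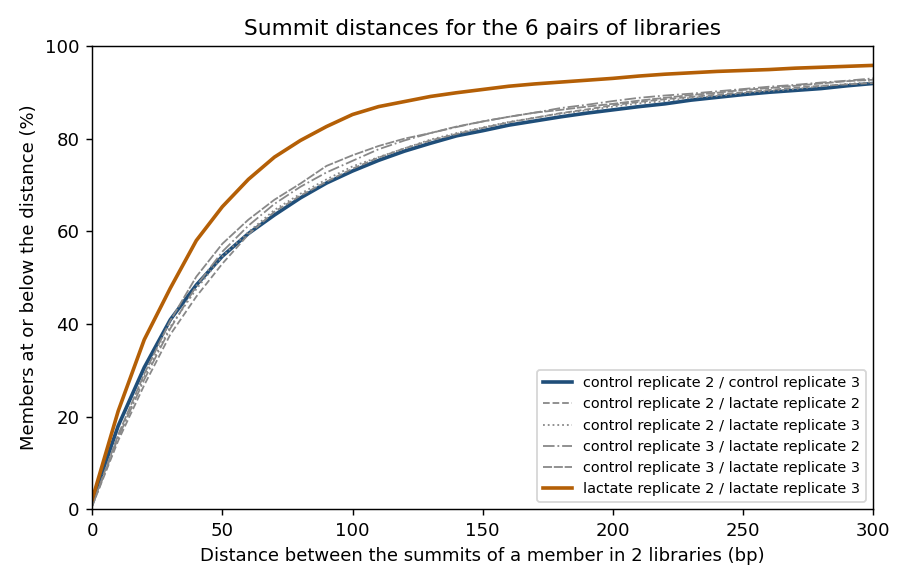
Cumulative share of the 8132 members (%) against the distance between the summits of a member in 2 libraries (bp), with a line for each of the 6 pairs of libraries. The lactate pair lies above the others, with 65.3% of members within 50 bp, and the control pair runs among the 4 crossed pairs.

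The curves of summit distance separate only the lactate pair. Over all 4 libraries the median spread between the outermost summits was 97 bp, and 2027 members (24.9%) had all 4 summits within 50 bp. The narrowest spread was 3 bp, found in a region inside TNRC6C, a gene of microRNA-mediated silencing, and in regions nearest to ETS2 and MRPL46. At TNRC6C the 4 peaks were 337 to 387 bp wide and held 25, 25, 36 and 48 reads. At the other extreme, 362 members (4.45%) had summits more than 500 bp apart. The widest spread was 1076 bp, in a region 4634 bp from IRF2BPL, with 20, 22, 12 and 16 reads. Members at ELF3, an epithelial transcription factor gene, and MED15, a Mediator subunit gene, followed with 1029 and 985 bp.

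Over all members, treatment was compared by ranks, so that a difference in the level of a whole list does not enter. The fold values of single members are set side by side as deposited, and whether they overlap describes those values only. Members were ranked by fold within each library, and a member was counted as higher when both lactate ranks were above both control ranks. By this count 2264 members (27.8%) ranked higher and 2183 (26.8%) lower in lactate. Over all 20499 regions held by all 4 libraries the shares were 29.6% higher and 27.9% lower, so the members were near that background. With 2 libraries against 2, the smallest exact two-sided permutation p for a single region is 0.333. No model was fitted to single regions, and each region below is a description.

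The order of members by fold was shared within a treatment much more than across. The Spearman correlation of fold over the 8132 members was 0.607 for the control pair, 0.7 for the lactate pair and 0.262 to 0.274 for the 4 crossed pairs. The correlation of reads at the summit was 0.549 and 0.736 within and 0.425 to 0.465 across. The local background gave the largest gap, with 0.887 and 0.916 within and 0.428 to 0.435 across. In 81.2% of members the background of the control libraries differed by less than 5%, and in 82.2% that of the lactate libraries did, against 22.6% to 23.1% across treatments. The input depth behind the background was 1 in both control and 0.959 in both lactate libraries relative to control replicate 2. The local background is made from input reads, so the input and the treatment cannot be told apart.

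Only part of the members had a background that stood for input reads at the summit itself. The ChIP pileup had been scaled down to the input, by factors of 0.703 to 0.858, so the background is in units of unscaled input reads. In 34.1% to 34.5% of members per library it was the genome-wide level, the lowest the caller allows. In 25.2% and 25.7% of members of the control libraries and 32.6% and 32.2% of the lactate libraries it was a whole number, as when input reads cover the summit itself. That number was 1 in 1053, 1072, 1207 and 1240 members and above 3 in 97, 117, 412 and 390 members of control replicates 2 and 3 and lactate replicates 2 and 3. In the rest it was a fractional value with a median of 1.28 to 1.4.

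The 12 members with the widest gaps in fold rank all had a background that differed between the treatments. At PML, the gene of the organiser of nuclear bodies, a member at chr15:74044268-74045213 had a fold of 15.1 and 18.1 in untreated cells against 3.91 and 3.98 under lactate. Its reads were not lower in lactate, with 38 and 43 in untreated cells against 49 and 51 under lactate. Its background was at the genome-wide level in both control libraries and stood for 10 and 9 input reads in the lactate libraries. At IL6, the gene of an inflammatory cytokine that drives the acute phase response of liver, the fold was 12.8, 14.4, 2.83 and 2.46 in the same order. The reads there were 32, 34, 45 and 44, and the background stood for 13 input reads in both lactate libraries. At SPRY4, a gene of a feedback inhibitor of receptor tyrosine kinase signalling, the reads were 30, 34, 39 and 47 and the fold 12, 14.4, 3.45 and 3.34.

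The other 3 members with the widest falls in fold rank did not have more reads in lactate than in both control libraries. CNTFR, the gene of a receptor for ciliary neurotrophic factor, had 32, 40, 30 and 36 reads and a background of 5 input reads in both lactate libraries. RHOBTB2 had 34, 32, 24 and 26 reads, and the member 44184 bp from FBLN2 had 36, 38, 24 and 25. Scaled to the genome-wide background, these were 28.6, 28.6, 25.9 and 25.7 at RHOBTB2 and 30.3, 34, 25.9 and 24.7 near FBLN2, still lower in both lactate libraries. In both, the background stood for 4 input reads in each lactate library.

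The 6 widest rises in fold rank had the converse pattern. The member at chr17:36823261-36824128, 113272 bp from LHX1, a developmental homeobox gene, had 36, 25, 39 and 36 reads. Its fold was 4.39 and 3.28 in untreated cells against 19.2 and 16 under lactate, and its background stood for 5 input reads in both control libraries and was at the genome-wide level in both lactate libraries. The member 70007 bp from DHX35 had 37, 40, 39 and 40 reads and a fold of 4.5, 3.87, 17.2 and 14.2. At AFF3, a gene of a transcription elongation factor family, reads were 29 and 30 in untreated cells against 44 and 41 under lactate, and at TTC7B they were 19 and 16 against 24 and 29. The members nearest to PSMG1 (15, 22, 29 and 37 reads) and OBP2B (23, 23, 29 and 32 reads) were also higher in reads in lactate. All 6 had a higher background in both control than in both lactate libraries.

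**Figure D3:**
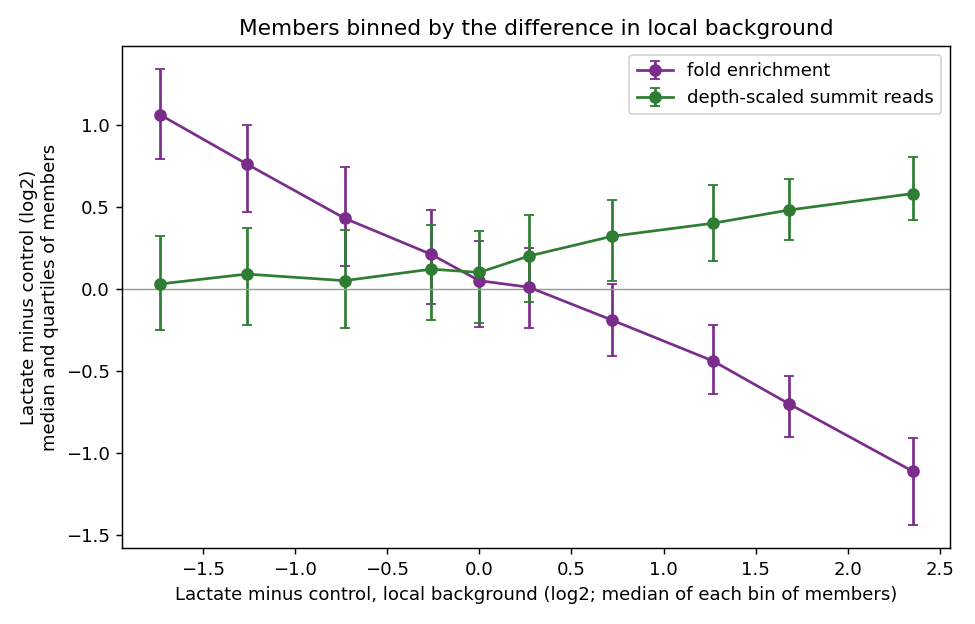
Members binned by their difference in local background (x axis, log2, lactate minus control, plotted at the bin's median), with the median and quartiles of the difference in fold enrichment and in depth-scaled summit reads (y axis, log2, lactate minus control). The median fold difference falls from 1.06 to −1.11 across the bins, and that of the depth-scaled reads goes from 0.03 to 0.58.

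The plot of binned members shows the same relation over all of them. In the 98 members whose background was lowest in lactate (median log2 difference −1.73), the median log2 difference in fold was 1.06 and that in depth-scaled reads was 0.03. Depth-scaled reads are summit reads divided by what the library's genome-wide level would give there, so they leave out the local background. In the 155 members whose background was highest in lactate (median 2.35) the fold differed by −1.11 and the depth-scaled reads by 0.58. In the 1612 members with equal background, within 0.05 on the log2 scale, the medians were 0.05 and 0.10. Fold holds the background in its denominator, so the fall of the fold line is in part arithmetic. A member needed a peak in every library, and over a higher background that takes more reads. The rise of the depth-scaled line may therefore be in part set by the rule. Over all members the median log2 difference was 0.04 in fold and 0.19 in depth-scaled reads, and over the 12367 other regions held by all 4 libraries it was −0.17 and 0.21.

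Ranking by depth-scaled reads gave another set of members. By these ranks 1987 members (24.4%) were higher and 1872 (23%) lower in both lactate libraries, against 24.3% and 23% over all 20499 regions held by all libraries. Of the members ranked higher by fold, 1277 were also higher by depth-scaled reads, which is 56.4% of the fold set and 64.3% of the reads set. Of those ranked lower, 1244 were shared (57% and 66.5%). Members ranked higher by fold had a median log2 difference of 0.47 in depth-scaled reads and −0.26 in background. Those ranked lower had −0.15 and 0.35. Relative to the shift of 0.19 over all members, both sets lay in depth-scaled reads in the direction of their fold. Fold holds the summit reads in its numerator, so this direction and the shared counts are in part arithmetic.

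The members with the widest gaps by depth-scaled reads, chosen after their values were seen, had large differences in reads. At ACACA, the gene of the acetyl-CoA carboxylase that commits acetyl-CoA to fatty acid synthesis, a member at chr17:37086342-37087187 held 52 and 57 reads in the control against 12 and 16 in the lactate libraries. Its background was 1.52, 1.52, 1.58 and 1.46 times the genome-wide level, and its fold was 16.6, 19.3, 5 and 6.19. The reads were lower in lactate with nearly equal background.

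TNS1, the gene of a focal adhesion protein, had 36 and 34 reads in the control against 9 and 12 in the lactate libraries, all at the genome-wide background. SLC28A1, a nucleoside transporter gene, had 49, 39, 16 and 15 reads, and ASIC2, an acid-sensing ion channel gene, had 55, 55, 14 and 18. The member 12200 bp from NPR3, a natriuretic peptide receptor gene, had 37, 36, 14 and 15. In the other direction SYNDIG1, ANXA11 and MICAL1 had 13 to 19 reads in the control and 30 to 38 in the lactate libraries. NRXN3, a neuronal adhesion gene, had 18, 16, 28 and 33 reads but a fold of 7.44, 7.07, 5 and 3.73, with 4 and 6 input reads behind the background in the lactate libraries. Fold and depth-scaled reads thus pointed in opposite directions there.

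**Figure D4:**
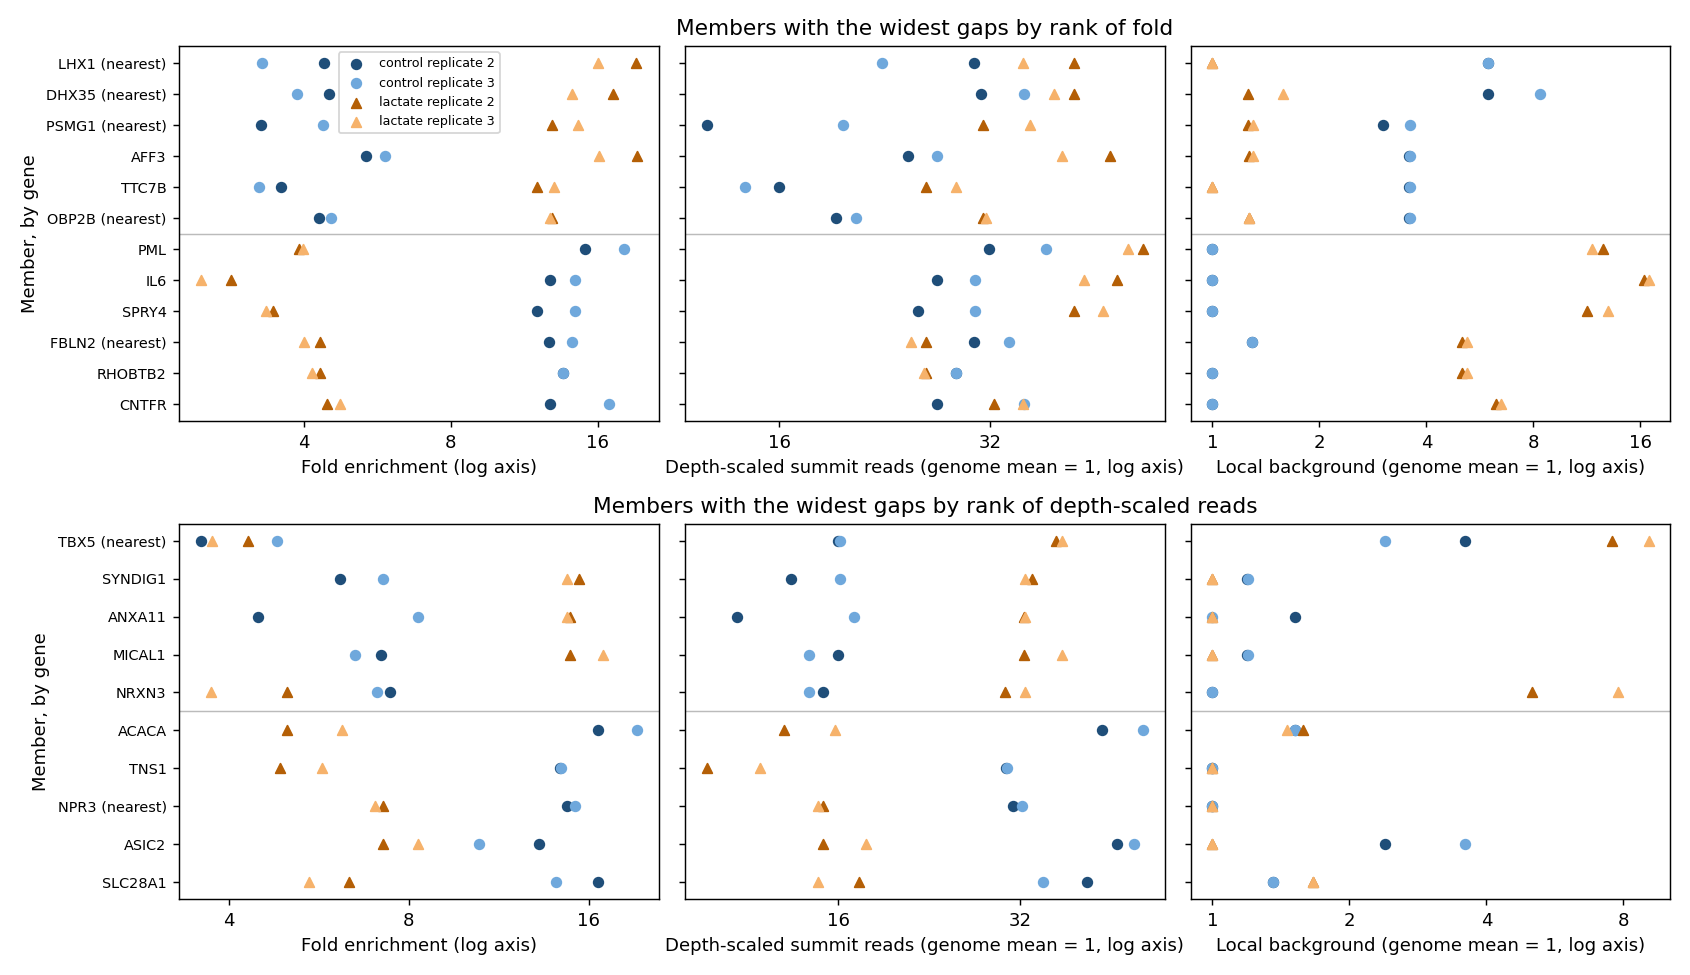
Fold enrichment, depth-scaled summit reads and local background (all on log axes, the last 2 relative to the genome-wide level) of the 12 members with the widest gaps by fold rank (top) and of those by rank of depth-scaled reads (bottom), with a point for each library. In the top panels the background separates the treatments at all 12 members, while at TNS1 and the member nearest to NPR3 all 4 libraries have a background of 1.

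The dot plot of these members puts the 3 measures side by side. Among the 12 chosen by fold, the depth-scaled reads overlapped between the groups at CNTFR alone. By rank of depth-scaled reads, 24.4% of all members were higher and 23% lower in both lactate libraries. The 12 are extremes by fold, which holds the same reads, so their count does not describe members at large. Among those chosen by depth-scaled reads, the fold overlapped at the member 35578 bp from TBX5, where the background was high in all libraries (3.58, 2.39, 7.55 and 9.09 times the genome-wide level).

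Members were mostly inside genes and far from start sites. The summit of 5341 members (65.7%, exact 95% interval 64.6 to 66.7%) lay inside a coding gene, 750 (9.22%) lay only inside a noncoding gene and 2041 (25.1%) outside any gene. Over all 49900 interior autosomal regions 65.3% lay inside a coding gene. The other regions held by all 4 libraries were inside coding genes more often, at 74.5% (73.3 to 75.7%). The exact intervals here and below treat regions as independent and cover counting error only. The annotation gives gene spans without exons, so exonic and intronic positions were not assigned.

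Start sites held a small share. The table had no start on chromosome 8. Of the 7819 members elsewhere, 436 (5.58%, 5.08 to 6.11%) had the summit within 1 kb of a coding start, and the median distance was 39695 bp. The share was 5.17% (4.56 to 5.84%) in the other regions held by all libraries and 6.11% (5.9 to 6.33%) over all interior autosomal regions. Regions with a peak in both control and in neither lactate library were at 8.27% (7.63 to 8.94%), and the converse lactate-only regions at 6.33% (5.11 to 7.73%). Most member summits near a start were very close to it, with 368 within 500 bp and 68 between 500 and 1000 bp.

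**Figure D5:**
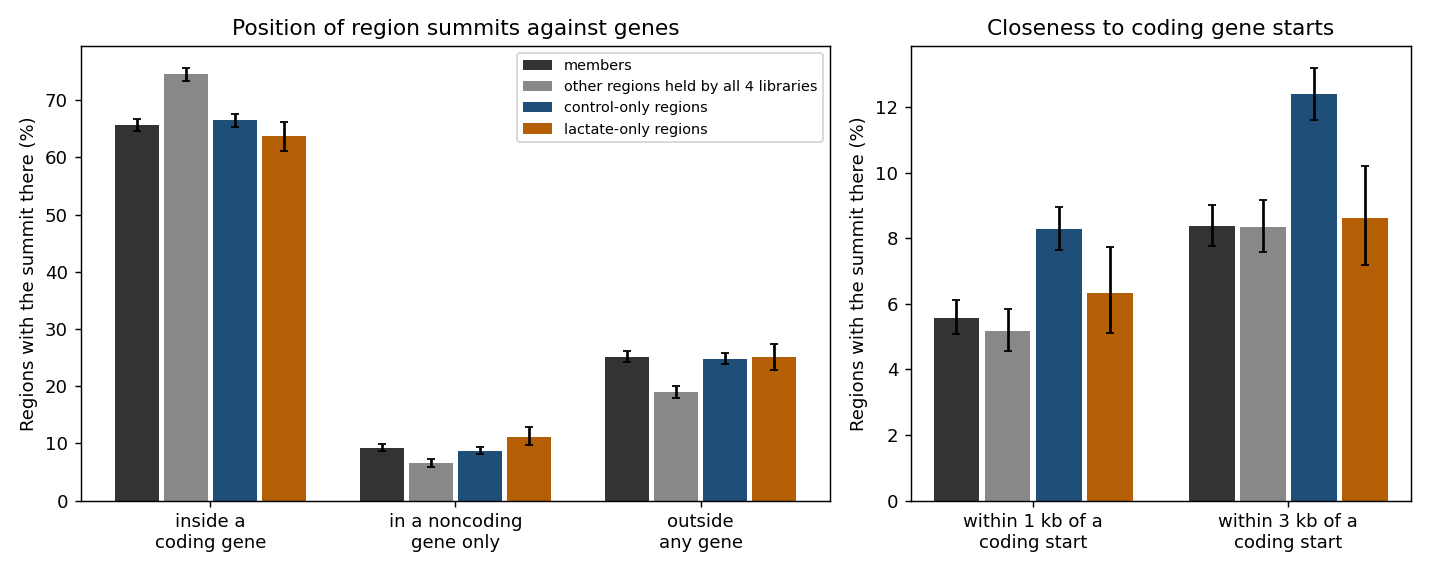
Share of regions (%) with the summit inside a coding gene, only in a noncoding gene or outside any gene (left), and within 1 kb or 3 kb of a coding start (right), for members, other regions held by all 4 libraries, control-only and lactate-only regions, with exact 95% binomial intervals as bars. Members reach 65.7% inside coding genes against 74.5% in the other shared regions, and control-only regions reach 8.27% within 1 kb of a start against 5.58% of members.

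The bar plots of position also show the wider window, in which 8.36% of members lay within 3 kb of a coding start and 12.4% of control-only regions did. In that window the members and the other shared regions (8.34%) had overlapping intervals.

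Coding genes that held a member, inside or within 1 kb, numbered 3065 of 19126 on the autosomes (16%). The 19126 include genes within 5 Mb of a chromosome end, where the rule allows no member. Such genes count as without a member in this share and in the length classes, gene lists and marker counts below. Of these, 1951 held 1 member, 198 held at least 5 and 38 held at least 10. The share of genes with a member rose with gene length, from 6.27% of genes up to 10 kb to 36.1% of genes above 300 kb. The number of members per 100 kb of gene fell over the same classes, from 1.47 to 0.207. Members within 1 kb of a gene are counted over the gene's own length, which raises the value of short genes most. Part of the fall is therefore set by the count. Gene length therefore stands beside every share of a gene list below.

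The genes with the most members were long. RANBP2 had 27, but its annotated span of 1122820 bp covers other genes, SH3RF3 with 20 members among them. SORCS2, a neuronal sorting receptor gene, had 24. GLI2, a Hedgehog transcription factor gene, IQSEC1, an exchange factor for ARF GTPases, and SHANK2, a postsynaptic scaffold gene, had 23 each. Members ranking higher and lower by fold in both lactate libraries were about even in SORCS2 (7 and 7), RANBP2 (6 and 7), SH3RF3 (5 and 5) and CDH23 (5 and 5). Among the other genes rich in members, there were more higher ones in ZNF423 (8 and 5) and AGAP1 (6 and 4). There were more lower ones in GLI2 (2 and 8), IQSEC1 (3 and 13), SHANK2 (2 and 7), ATP2B2 (1 and 7), LDLRAD4 (5 and 8) and TNS3 (3 and 5). Over all regions held by all 4 libraries the shares were 29.6% higher and 27.9% lower. The median fold over the GLI2 members was 9.74 and 9.13 in untreated cells against 6.93 and 6.92 under lactate. Reads and background were not summarised per gene. Fold holds both, so these counts and medians do not tell fewer reads from a higher background. Neighbouring members share a locus and are not independent. Per length, among genes with at least 5 members inside or within 1 kb, PROM2 was the densest, with 6 members in 16854 bp. PROM2 is the gene of a membrane protrusion protein. TKFC (5 in 20199 bp), MAN2B2 (10 in 48174 bp), OGDHL (5 in 27739 bp) and CACNA1G (10 in 66760 bp) followed. These genes were picked after their counts were seen.

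Gene lists were read against the 16% of all coding genes. Of 31 glycolysis genes, 9 (29%, 14.2 to 48%) held a member, and their median gene length was 19362 bp against 24476 bp over all coding genes. Among these were PFKFB3, HK1, PFKFB4, GPI, HK2, HKDC1, PKM and GAPDH, so the hexokinase step was represented by HK1, HK2 and HKDC1. At PFKFB3, which makes the activator of phosphofructokinase, the fold was 10.5, 12, 11.8 and 11.9, with overlapping groups. At HK1 it was 8.2, 12.4, 12.5 and 11.7, also overlapping. PFKFB4 had 21 and 18 reads in the control against 33 and 30 in the lactate libraries, with a fold of 8.59, 7.88, 14.7 and 11.9. GPI, which interconverts glucose and fructose phosphates, had a fold of 8.21, 8.89, 11.6 and 11.6, while its depth-scaled reads were 26.1, 28.6, 24.8 and 25.7.

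Of 21 glucose and lactate transport and sensing genes (median length 30374 bp), 4 (19%, 5.45 to 41.9%) held a member. These were the glucose transporter genes SLC2A7, SLC2A11 and SLC2A1 and the monocarboxylate transporter gene SLC16A7. The SLC16A7 member had a fold of 7.44, 7.88, 6.77 and 7.01 on 18, 18, 13 and 15 reads. The SLC2A1 member lay 568 bp outside the gene, with a fold of 5.91, 6.25, 5.48 and 4.39. Both were below the member median in every library. Of 18 genes for writers and erasers of lactylation (median length 37665 bp), 2 (11.1%, 1.38 to 34.7%) held a member. These were the acetyltransferase gene KAT8 and the deacylase gene SIRT2. KAT8 had a fold of 5.83 and 6.47 in untreated cells against 8.39 and 11.8 under lactate, and SIRT2 of 7.37, 6, 4.66 and 6.92.

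Liver transcription factors and liver secretory proteins both held members. Of 24 liver factors, 7 (29.2%, 12.6 to 51.1%) held one, HNF4A, GATA4, PROX1, ATF5 and NR1I2 among them. HNF4A, a central nuclear receptor of hepatocytes, had a fold of 11.6 and 11.4 in untreated cells against 14.9 and 15.7 under lactate. Its depth-scaled reads were 32.8 and 32.2 in untreated cells against 33.5 and 36.5 under lactate, so they did not overlap either. Their log2 difference of 0.11 was below the median of 0.19 over all members. The background at HNF4A was 1.74, 1.74, 1.07 and 1.11 times the genome-wide level. GATA4, a zinc finger factor of endoderm and heart, had a fold of 8.87, 11.2, 14.4 and 14.7. Of 42 genes for plasma proteins made by liver, 5 (11.9%, 3.98 to 25.6%) held a member, and their median length was 14682 bp against 34112 bp for the factors. These were F2 (prothrombin), ITIH1 and ITIH3 (inter-alpha-trypsin inhibitor heavy chains), APOC3 (an apolipoprotein) and CFB (complement factor B). At APOC3 the fold was 6.45, 9.42, 5.53 and 5.23. The intervals of these lists overlap each other.

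The list with the longest genes had a share like that of long genes at large. Of 43 genes for glutamate receptors and neuronal adhesion, 18 (41.9%, 27 to 57.9%) held 58 members, with a median of 444798 bp. The share over all genes above 300 kb was 36.1%. The neuronal list was led by PTPRT, a receptor phosphatase gene, with a fold of 14.3, 10.7, 15.6 and 17.4. The glutamate receptor genes GRM8 (10.1, 14.8, 14.4 and 14.3), GRM3 (10.1, 10.7, 13.9 and 16.5) and GRIK4 (11.7, 10.3, 13.5 and 12.6) followed. The fold did not overlap between the groups at PTPRT, GRM3 and GRIK4, with lactate higher, and overlapped at GRM8. By fold rank among the members, the groups overlapped at PTPRT (127, 1822, 289 and 156) and GRIK4 (698, 2198, 679 and 1140) as well.

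Of 43 genes for histone methylation and chromatin remodelling (median length 83927 bp), 11 (25.6%, 13.5 to 41.2%) held a member. The share over all genes above 30 kb and up to 100 kb was 19.9%. CHD7, a remodeller gene, had a fold of 9.47, 11.6, 13 and 18.6. KMT2D, an H3K4 methyltransferase gene, had 7.6 and 8.81 in untreated cells against 14.4 and 15.6 under lactate, and its depth-scaled reads were 26.1, 30.4, 31.3 and 34.6. ARID1B, a SWI/SNF subunit gene, had 12 and 14 against 7.53 and 9.08, with depth-scaled reads of 25.2, 29.5, 18.3 and 22.7, so both measures were lower in lactate. Of 40 cell cycle genes (median length 19532 bp), 7 (17.5%, 7.34 to 32.8%) held a member, close to the share over all genes. Among them, MCM5, a replicative helicase gene, had a fold of 11.7, 9.51, 5.77 and 5.19. Its depth-scaled reads overlapped, at 24.4, 19.7, 20.5 and 25.7, over a background of 1, 1, 2.52 and 3.9. CDKN1A, a kinase inhibitor gene, had an overlapping fold of 8.68, 12.4, 11.5 and 10.2. Its depth-scaled reads were higher in both lactate libraries, at 21, 30.4, 42.1 and 38.5, over a background of 1.36, 1.36, 2.52 and 2.6. Of 65 cytosolic ribosomal protein genes, which are short (median 4799 bp), 2 (3.08%, 0.375 to 10.7%) held a member, RPL38 and RPL4.

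Genes of other cell types also held members. Of 19 stromal and endothelial genes, 9 (47.4%, 24.4 to 71.1%) held one, with a median gene length of 39643 bp. PDGFRB, a growth factor receptor gene of mesenchymal cells, held the member of rank 39, with a fold of 14.6, 15.1, 16.8 and 14.2. COL1A1, a collagen gene, held that of rank 100, with 12.8, 12.4, 14.9 and 13.9. Of 22 blood cell genes (median length 19867 bp), 5 (22.7%, 7.82 to 45.4%) held a member. They were led by IKZF1, a lymphoid transcription factor gene, with a fold of 12, 12, 10.8 and 12.3. Of 10 defining hepatocyte genes, 2 held a member, HNF4A among them, and 5 (ALB, APOB, TTR, FGB and FOXA2) had no peak in any library. The hepatoma markers AFP and GPC3 also had none. Of 10 defining stromal and endothelial genes 5 held a member, and of 10 defining blood genes 1 did. A peak at a gene does not report its expression, so these counts name no cell type.

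Members were unevenly spread over the chromosomes. There were 3.06 members per Mb over the interior of the 22 autosomes. Chromosomes 19 (9.73 per Mb) and 20 (8.21 per Mb) had the most, and chromosomes 13 (0.604) and 4 (0.954) the fewest. Over the 22 chromosomes the members per Mb followed the coding genes per Mb with a Spearman correlation of 0.69, given as a description. Chromosome 20 had more members per Mb than chromosome 17 (5.64) with fewer coding genes per Mb (7.09 against 13.1). Neighbouring members were 47254 bp apart in the median, and 1691 of 8110 gaps (20.9%) were at most 10 kb.

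The limits of the rule divided regions of similar fold. The 411 members whose widest peak was 1 to 50 bp under 1000 bp had median folds of 8, 8.73, 7.79 and 7.87. The 351 regions whose widest peak was less than 50 bp above 1000 bp, and which met the rest of the rule, had 8.24, 8.73, 8.39 and 8.33. Just inside were members in TMC3, GTF3C1 and RALGDS, each with a widest peak 1 bp short of the limit. Just outside were regions in IQSEC1 and SHB and near TMEM132E, each with a widest peak of 1000 bp. At IQSEC1 that region had a fold of 9.74, 12.8, 8.21 and 11.3, within the range of the members. The 310 members 5 to 6 Mb from a chromosome end had median folds of 7.89, 8.69, 8.06 and 8.13, and the 473 regions 4 to 5 Mb from an end had 7.89, 8.42, 8.41 and 8.57.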

How the data were processed

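H4K5la ChIP-seq peak lists of 2 control and 2 lactate libraries were analysed, grouped by the sample labels. The submitters' processing notes name Trimmomatic 0.38, Bowtie2 2.3.4.2, SAMtools 1.9, Picard 2.18.11, MACS2 2.2.6 and the build hg38. The authors' deposited lists, called per library, give for each peak an integer score, a fold (ratio to the local background at the summit), the −log10 of its p-value, the −log10 of its q-value and the summit offset. The lowest deposited −log10 q was 2 to 2.02. Reads and background at each summit were recovered from fold and −log10 p by the Poisson formula of MACS2, and the recovery was tested on simulated peaks. Total depth is not stated in the lists.

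Genes, promoters and microRNAs came from RefSeq tables of GRCh38.p14. Python 3.11.15, pandas 2.3.3, numpy 2.4.6, scipy 1.17.1 and matplotlib 3.10.9 were used. The members, gene lists and alternatives were chosen with earlier results of these data known. Named were the 12 best members by mean fold rank, the 10 best within 1 kb of a start, the 6 widest rank gaps each way, the extremes of summit spread, of the width limit and of chromosomes, and up to 4 genes per list. Some members and genes taken by this rule are not reported here. Gaps by depth-scaled reads, microRNAs and genes with the most members were added after values were seen. Shares carry exact Clopper-Pearson 95% intervals. Alternatives changed the peak threshold, peak number, width limit, end distance, overlap, window, ranked quantity, replicate block and libraries. The 2 input libraries and the score were not used.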

Additional observations from a re-analysis of the deposited data

How the results depend on the processing

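The number of members was within 1.5 times of 8132 under every alternative but a width limit of 500 bp, which left 1978. Under that limit 532 members ranked higher and 518 lower by fold in both lactate libraries, 4.46% of summits lay within 1 kb of a coding start, the median summit distance was 25 bp, and the median fold was 8.68 and 8.86 in the lactate libraries. With 37951 peaks in each library the start share was 4.82%, the summit distance 37 bp, and the median fold 8.59, 9.38, 8.68 and 8.86. A limit of 2000 bp gave 67.6% inside coding genes and a summit distance of 51 bp. A margin of 1 Mb from the ends gave 63.6% inside genes and 4.67% at starts. A window of 3 kb held 8.36% of summits, and either gene end 8.52%, an alternative chosen after seeing the data. Peaks with a −log10 q of at least 5 had a median fold of 8.68 and 8.96 in the lactate libraries, and a reciprocal overlap of 50% gave 8.65 and 8.73. With each library left out in turn, which asks 1 library to lie beyond the 2 others, 3880 to 4114 members ranked higher and 3770 to 3949 lower. Over these settings the median fold was 7.73 to 8.21 in lactate replicate 2 and 7.87 to 8.33 in lactate replicate 3, lowest without the other lactate library.

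With the replicate block, which pairs libraries by their number, 2782 members ranked higher and 2656 lower, within 1.5 times of the counts without it. The labels give a shared number only. Ranks by −log10 p gave 2065 and 1964. For these counts, those under the 500 bp limit and those with a library left out, no share over all shared regions was computed. The remaining settings, 71 of 104 in all, stayed within the replicate spread or within 1.5 times. Depth limits every value, since a median member held 22 to 25 reads. In 25.2% to 32.6% of members per library the background was a whole number, mostly of few input reads.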
